A study of Mus musculus with 8 samples.

Results

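The genes described here were 10 members of the common gamma chain family, namely the cytokine genes Il2, Il15, Il21 and Il7 and the receptor genes Il2ra, Il2rb, Il2rg, Il15ra, Il21r and Il7r. They were found as the non-control probes of the arrays that carried 1 of these 10 gene names, which gave 22 of 56567 probes, or 10 of 37309 genes. The probes were read over all 4 treatment groups, and the rule used gene names and no measured value, although the family was proposed with earlier results of these data known.

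The cytokines of this family share 1 receptor subunit, the common gamma chain encoded by Il2rg. Il2rb is shared by the interleukin 2 and interleukin 15 receptors, whereas Il2ra (CD25), Il15ra, Il21r and Il7r each give specificity for their own cytokine within this family. Binding activates the kinases JAK1 and JAK3 and STAT transcription factors, STAT5 above all for interleukins 2, 7 and 15 and STAT3 for interleukin 21, and these signals keep T cells and natural killer (NK) cells alive and dividing.

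RNA was measured in whole CT26 tumors, a colon carcinoma line of BALB/c mice, grown under the skin of the flank from 500000 implanted cells. Once tumors were established the mice, young adult females of the immunocompetent BALB/c strain according to the methods, received vehicle, the EP4 antagonist TP-16 (also named BY001, 75 mg/kg by mouth each day), an anti-PD-1 antibody (50 µg per mouse into the peritoneum, 2 times a week) or both agents, for 2 weeks. EP4 is a prostaglandin E2 receptor that raises cyclic AMP, and PD-1 is an inhibitory receptor of T cells. Each group held 2 independent biological replicates, 8 one-colour Agilent arrays in all, from 1 tumor line.

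All 8 arrays lay on 1 slide, with vehicle and TP-16 in row 1 and the 2 groups given antibody in row 2, so slide row and antibody cannot be told apart, nor can slide column and TP-16. Between 51.4% and 59.7% of probes were well above background on an array, and the replicates of a group correlated with r from 0.978 (vehicle) to 0.991 over the probes tested. Vehicle replicate 1 stood apart by lower levels of T cell and NK cell genes. Its 6 neutrophil markers had the highest summed log2 level of the 8 arrays (6.86 against 5.79 to 6.73), which rested on Csf3r (6.29). Their mean log2 level was the lowest of the 8 arrays (0.30 against 0.39 to 1.27). The summed log2 level of 15 T cell markers was 4.53 on vehicle replicate 1 and 5.41 on vehicle replicate 2, against 5.51 to 6.88 on the 6 treated arrays. Replicate 2 of TP-16 and of anti-PD-1 stood apart by epidermal genes, with a summed log2 level of 6 epidermis and hair follicle markers of 4.95 and 4.96 against 0.97 to 2.34 on the other arrays, and calls in comparisons with a single agent are given with and without them. The leukocyte gene Ptprc was well above background on all 8 arrays, and so was the epithelial keratin Krt18, whereas the epithelial gene Epcam was so on 1 array. Levels below are log2 signals relative to the 75th percentile of the array, and a gene is given by its brightest probe unless stated.

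A regulatory sequence bears on members that move together, so the promoters were searched for motifs of the factors downstream of these receptors and of EP4. RefSeq (GRCm38.p6) gave 8 promoter windows for 7 of the 10 genes, each 300 bases long with 250 before the start site, and Il2rb, Il15 and Il7 had no entry in the table used. The STAT motif TTCNNNGAA, which reads the same on both strands, was present in 1 of the 8 windows, that of Il7r, and in 8.3% of all 32851 promoters. The cyclic AMP response motif core TGACG, searched on both strands, was present in 1 window, the second of Il15ra, and in 20.8% of all promoters. The full motif TGACGTCA, which contains the core, and the motif of interferon regulatory factors (the letters GAAA 2 times, 2 bases apart) were in none of the 8, against 1.79% and 3.44% of all promoters. The 250 bases before the start of each of these 2 windows are shown because they hold the matches, in capitals. Il7r lies on the minus strand (chr15:9529877-9530126), and Il15ra on the plus strand (chr2:11705462-11705711). In the latter the core is read on the opposite strand.
Il7r: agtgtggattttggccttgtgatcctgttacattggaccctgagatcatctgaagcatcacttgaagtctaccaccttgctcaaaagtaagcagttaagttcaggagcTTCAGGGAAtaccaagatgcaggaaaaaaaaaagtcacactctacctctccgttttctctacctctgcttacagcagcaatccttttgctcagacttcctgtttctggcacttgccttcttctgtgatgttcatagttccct
Il15ra: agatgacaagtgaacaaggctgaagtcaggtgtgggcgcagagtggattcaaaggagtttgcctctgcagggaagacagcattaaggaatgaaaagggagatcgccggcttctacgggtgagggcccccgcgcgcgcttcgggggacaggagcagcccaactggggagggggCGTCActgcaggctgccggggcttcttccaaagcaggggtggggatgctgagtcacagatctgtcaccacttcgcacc
These matches are a description of letters in a window, and binding was not measured. Il7r was among the genes that rose, and Il15ra, by its brightest probe, was not.

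The cytokine genes were low or moved little. Il2, the T cell growth factor, was not well above background on any of the 8 arrays by its brightest probe (chr3:37024765-37024824, mm9) and on 1 array, vehicle replicate 2, by its other probe. The log2 readings of the brightest probe lay between -6.20 and -4.32. No change of Il2 could be given, since these readings are bounds and the gene was not tested.

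Il15, which sustains NK cells and memory T cells, was the cytokine gene with 3 probes above background on all 8 arrays. Its log2 level was 1.91 and 2.31 in vehicle, 2.45 and 2.48 in TP-16, 2.88 and 2.55 in anti-PD-1, and 2.59 and 2.60 in the combination. All 6 treated arrays lay above both vehicle arrays. The change against vehicle was 0.36 ± 0.18 (SE, n = 2 per group) with TP-16, 0.61 ± 0.18 with the antibody and 0.49 ± 0.18 with both, with limma adjusted p of 0.26, 0.279 and 0.0832. The other Il15 probes gave 0.66 (limma adjusted p of 0.0224) and 0.82 (0.0905) for the combination, and none of the 3 reached a fold of 2.

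Il21, a cytokine of helper T cells, was read near the limit of detection by a probe (chr3:37124300-37124359, mm9) detected above background in both vehicle and both TP-16 replicates but in 1 replicate only of each other group. Its log2 level was -3.84 and -3.68 in vehicle, -4.10 and -4.26 in TP-16, -4.24 and -4.02 in anti-PD-1, and -4.85 and -4.65 in the combination. The combination arrays were the lowest. The log2 difference of the combination from vehicle was -0.99 ± 0.14 (SE, n = 2 per group, limma adjusted p of 0.0107), just short of a fold of 2, but -0.17 (limma adjusted p of 0.652) after quantile normalization, so no change of Il21 is stated. Of all tested probes the median log2 difference was -0.20 in this comparison and -0.01 after quantile normalization.

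Il7, made by stromal cells and needed for T cell survival, had a log2 level of -0.88 and -0.76 in vehicle, -1.06 and -0.80 in TP-16, -1.15 and -0.60 in anti-PD-1, and -1.38 and -1.95 in the combination. Only the combination arrays lay below all others. The difference from vehicle was -0.84 ± 0.26 (SE, n = 2 per group, limma adjusted p of 0.057) and was -0.79 after quantile normalization (limma adjusted p of 0.0839).

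**Figure D1:**
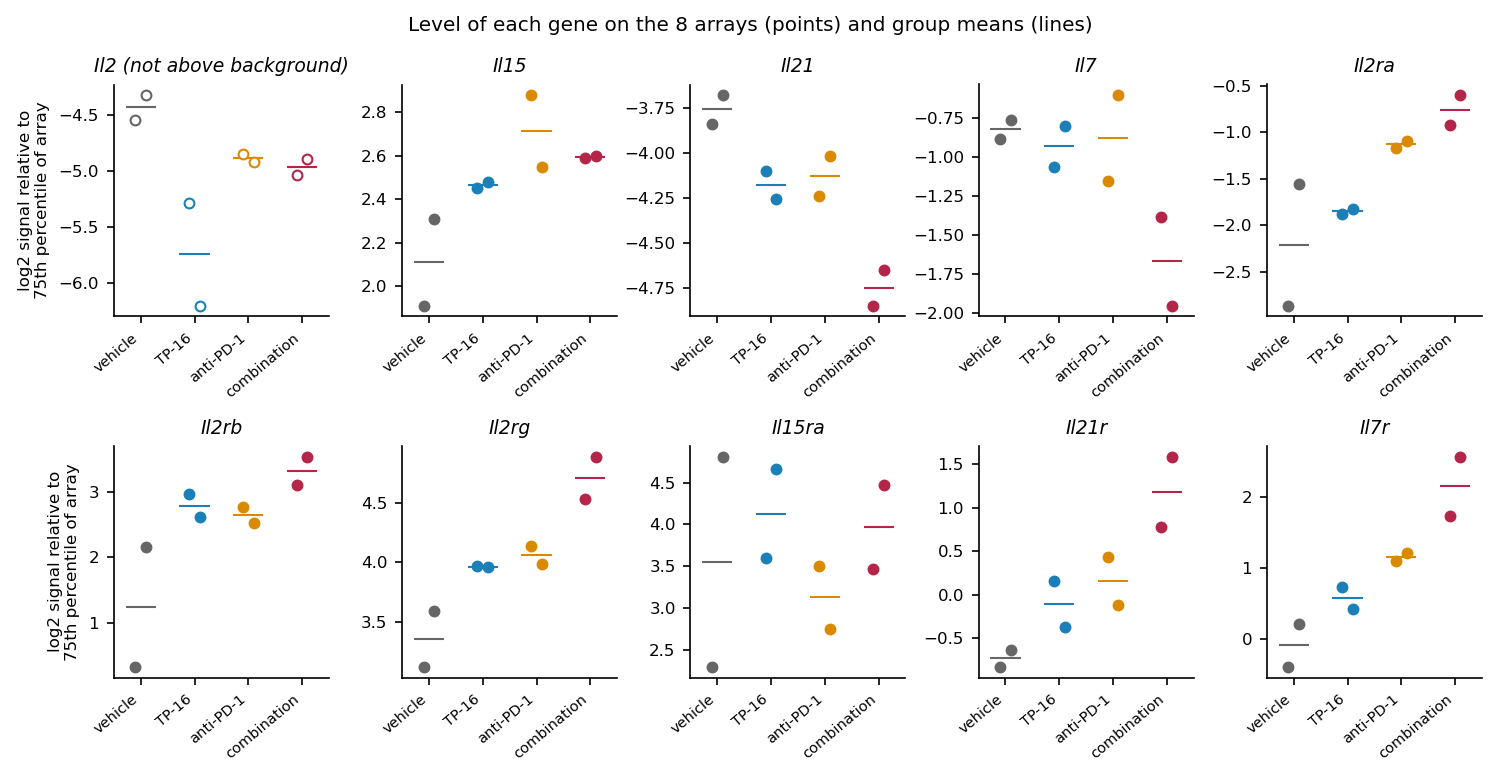
Level of each gene on the 8 arrays as log2 signal relative to the array's 75th percentile (vertical axis, own scale per panel) by treatment group (horizontal axis). Points are arrays, lines are group means and open points mark Il2, which was not well above background. The combination arrays are the highest of the 8 for Il2ra, Il2rb, Il2rg, Il21r and Il7r and the lowest for Il21 and Il7.

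With the combination, 5 of the 6 receptor genes rose at least 2 fold, and for each of the 5 both combination arrays lay above the 6 others. How many of all tested probes showed that separation was not counted. A gene was called at the threshold of the methods where it differed at least 2 fold and its unadjusted p did not exceed 0.05, and at adjusted p where the Benjamini-Hochberg adjusted p of limma over all 31912 tested probes stayed within 0.05 too. Of the 9 genes tested, 5 were called higher in the combination at the threshold of the methods, where 6.12% of all tested probes were called higher, and the same 5 at adjusted p, where 5.08% were. At any fold, 8 of the 9 genes had an unadjusted limma p under 0.05, beside 46.2% of all tested probes. The median log2 change of the 9 genes was 1.35 beside -0.20 for all tested probes. In bulk tumors, a change in the number of cells of a type and a change in RNA per cell cannot be told apart.

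Il7r, the receptor chain for interleukin 7 found on naive and memory T cells, showed the largest rise of the 9 with all 8 arrays in the fit. Its log2 level (chr15:9436822-9436881, mm9) was -0.39 and 0.22 in vehicle, 0.74 and 0.42 in TP-16, 1.1 and 1.22 in anti-PD-1, and 1.73 and 2.57 in the combination. Each treated group lay above vehicle without overlap, and the combination lay above both single agents. The log2 change with the combination was 2.24 ± 0.33 (SE, n = 2 per group, limma adjusted p of 0.0109), a fold of 4.72.

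Il2rg, the shared chain itself, had 1 probe (chrX:98459802-98459860, mm9). The log2 level was 3.12 and 3.59 in vehicle, 3.97 and 3.96 in TP-16, 4.14 and 3.99 in anti-PD-1, and 4.53 and 4.89 in the combination. Its change with the combination was smaller than that of Il7r, 1.35 ± 0.20 on the log2 scale (SE, n = 2 per group, limma adjusted p of 0.0109), a fold of 2.56. Vehicle lay below all treated arrays.

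Il21r, the receptor of interleukin 21 on lymphocytes, had log2 levels (chr7:132776644-132776703, mm9) of -0.83 and -0.63 in vehicle, 0.16 and -0.37 in TP-16, 0.44 and -0.12 in anti-PD-1, and 0.78 and 1.59 in the combination. The groups given 1 agent overlapped each other and lay between vehicle and the combination. The combination differed from vehicle by 1.91 ± 0.34 (SE, n = 2 per group, limma adjusted p of 0.0145), a fold of 3.76. A second Il21r probe, also above background on all 8 arrays, changed by 0.18 ± 0.18 (limma adjusted p of 0.465), so the 2 probes of this gene disagreed.

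Il2rb, the signalling chain shared by the interleukin 2 and 15 receptors and abundant on NK cells and activated CD8+ T cells, had log2 levels (chr15:78309771-78309830, mm9) of 0.32 and 2.16 in vehicle, 2.97 and 2.61 in TP-16, 2.77 and 2.52 in anti-PD-1, and 3.10 and 3.54 in the combination. The vehicle arrays lay further apart than the lowest and highest of the 6 treated arrays. The log2 change with the combination was 2.08 ± 0.57 (SE, n = 2 per group, limma adjusted p of 0.0407), and the second probe gave 1.98 ± 0.65 (limma adjusted p of 0.0648).

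Il2ra, the chain that raises the affinity for interleukin 2 and marks activated and regulatory T cells, had log2 levels of -2.86 and -1.55 in vehicle, -1.88 and -1.82 in TP-16, -1.17 and -1.09 in anti-PD-1, and -0.92 and -0.60 in the combination. TP-16 overlapped vehicle, and both groups given antibody lay above the 4 others. The combination differed from vehicle by 1.44 ± 0.41 (SE, n = 2 per group, limma adjusted p of 0.0435). The other Il2ra probe lay 44.5 kb from the first, was above background on 5 arrays and gave -1.12 ± 0.47 (limma adjusted p of 0.115), the opposite direction. Of 5 regulatory T cell markers, 2 were called higher at adjusted p in the same comparison, Ikzf2 at 1.59 ± 0.36 (limma adjusted p of 0.024) and Tnfrsf18 at 1.63 ± 0.44 (0.0381), and none lower. The defining factor Foxp3 differed by -0.21 ± 0.26 (limma adjusted p of 0.57), Ctla4 by 1.74 ± 0.87 (0.173) and Ccr8 by 0.51 ± 0.32 (0.256). The median log2 change of the 5 was 1.59, and without vehicle replicate 1 it was 0.29 with 1 called.

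Il15ra, which presents interleukin 15 to neighbouring cells, was the receptor gene that was not called by its brightest probe. That probe read 2.30 and 4.81 in vehicle, 3.60 and 4.66 in TP-16, 3.51 and 2.75 in anti-PD-1, and 3.47 and 4.47 in the combination (log2 levels). All 6 treated arrays fell inside the span of the vehicle pair. The combination differed from vehicle by 0.42 ± 0.88 (SE, n = 2 per group, limma adjusted p of 0.737). Its second probe gave 1.15 ± 0.44, a fold of 2.22, which was called higher at the threshold of the methods but not at adjusted p (limma adjusted p of 0.0922). The remaining probe gave 0.46 ± 0.37 (limma adjusted p of 0.365).

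**Figure D2:**
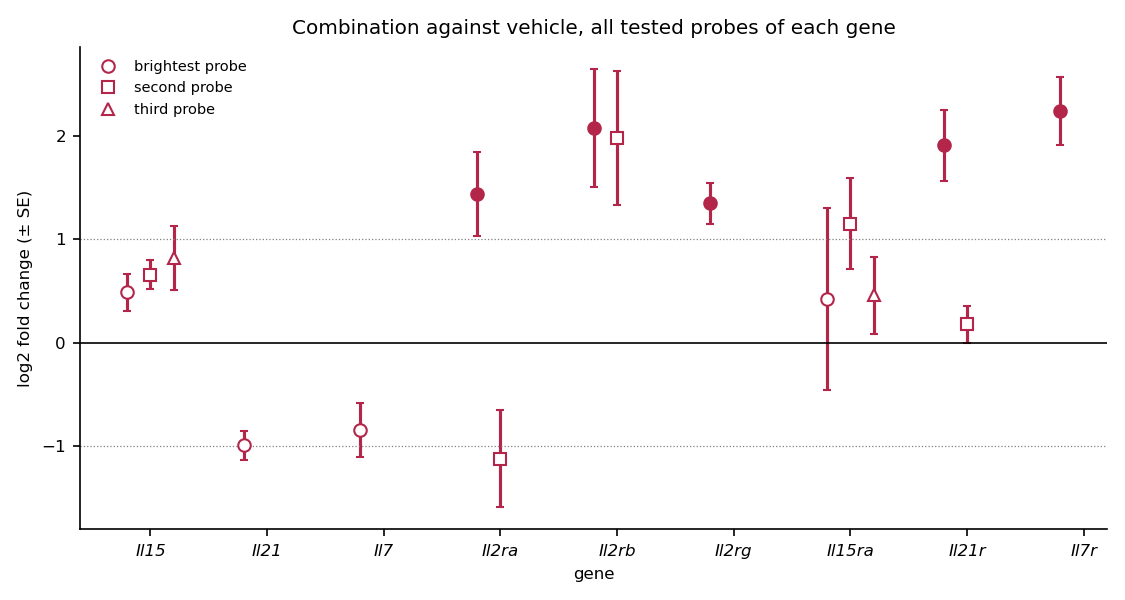
Log2 fold change of the combination against vehicle (vertical axis, bars are standard errors) for each of the 16 tested probes, by gene (horizontal axis). Filled symbols passed a fold of 2 and adjusted p, and dotted lines mark a fold of 2. The probes of Il15 and Il2rb lie together, those of Il2ra lie on opposite sides of 0 and the second probe of Il21r is near 0.

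The size of the change moved less with vehicle replicate 1 for Il7r, Il2rg and Il21r than for Il2rb and Il2ra. Without vehicle replicate 1 the log2 change with the combination was 1.93 for Il7r, 1.12 for Il2rg, 1.81 for Il21r and 1.16 for Il2rb. The single vehicle array left in that fit has no spread of its own, and the other groups supply it. Il2ra changed by 0.78 without that array, less than a fold of 2. Without vehicle replicate 2 the changes of Il2rb and Il2ra were 3.0 and 2.10. When each of the 8 arrays was left out in turn, Il7r, Il2rg and Il21r were each called at adjusted p in 7 of the 8 fits, Il2rb in 2 and Il2ra in 1. Without combination replicate 2, which leaves 1 combination array, the 5 changed by 1.17 to 1.86.

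**Figure D3:**
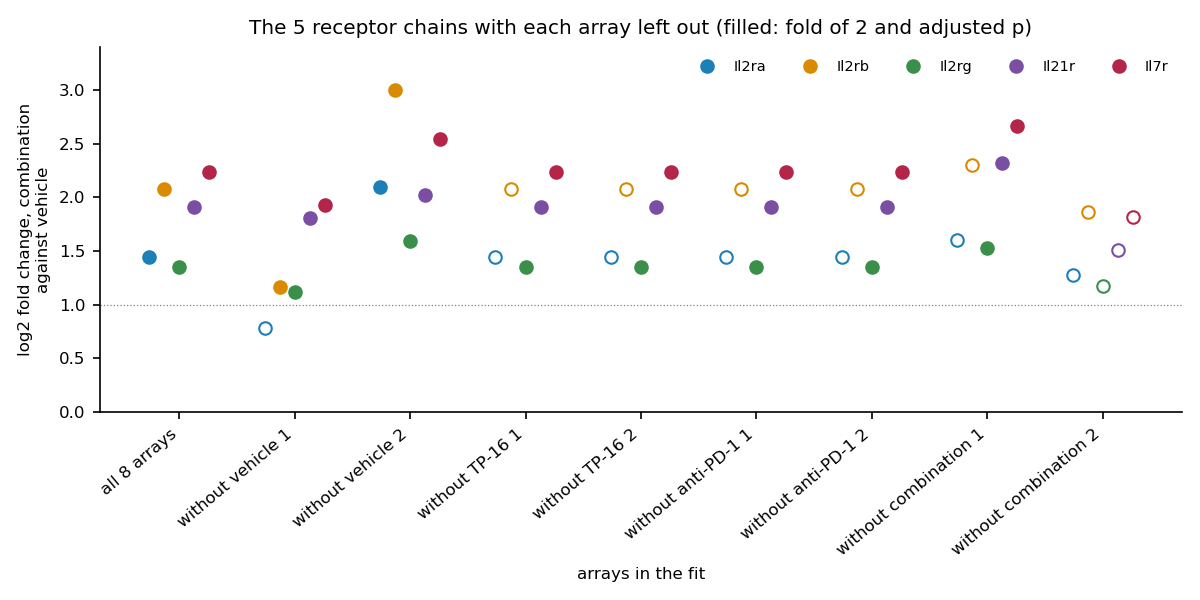
Log2 fold change of the combination against vehicle (vertical axis) for the 5 receptor genes with all 8 arrays and with each array left out (horizontal axis). Filled points passed a fold of 2 and adjusted p. All points lie above 0, and Il2ra and Il2rb move most when a vehicle array is left out.

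With 1 agent and all 8 arrays no member was called at adjusted p, and Il2ra with TP-16 overlapped vehicle. TP-16 alone gave 1 of 9 genes called higher at the threshold of the methods, Il2rb, where 1.57% of all tested probes were called higher. Il2rb differed from vehicle by 1.55 ± 0.57 on the log2 scale (SE, n = 2 per group, limma adjusted p of 0.168), and by 0.63 without vehicle replicate 1. Without vehicle replicate 2, so against vehicle replicate 1 alone, it differed by 2.47. Without TP-16 replicate 2 it differed by 1.73 and was not called (limma adjusted p of 0.297). The second Il2rb probe was not called (1.17 ± 0.65, limma adjusted p of 0.304), and the second Il2ra probe was called lower at the threshold of the methods (-1.56 ± 0.47, limma adjusted p of 0.123). By their brightest probes Il2rg and Il7r differed by 0.61 ± 0.20 and 0.67 ± 0.33. At adjusted p 0.0533% of all probes were called. An unadjusted p under 0.05 was seen at any fold in 3 of the 9 genes and in 25.9% of all tested probes.

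The anti-PD-1 antibody alone gave 2 of 9 genes called higher at the threshold of the methods, Il2ra and Il7r, where 1.67% of all tested probes were. Il7r differed from vehicle by 1.25 ± 0.33 (SE, n = 2 per group, limma adjusted p of 0.265) and Il2ra by 1.07 ± 0.41 (0.329) on the log2 scale. Il2ra differed by 0.42 without vehicle replicate 1. Without vehicle replicate 2, so against vehicle replicate 1 alone, Il2ra differed by 1.73 and Il2rb by 2.33. Without anti-PD-1 replicate 2, Il7r (1.18) and Il21r (1.17) were called at the threshold of the methods and Il2ra (1.04) was not. At adjusted p 0.0721% of all probes were called. An unadjusted p under 0.05 was seen at any fold in 6 of the 9 genes, beside 14.5% of all tested probes. The 3 comparisons share the same vehicle arrays, so they are not independent of each other.

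**Figure D4:**
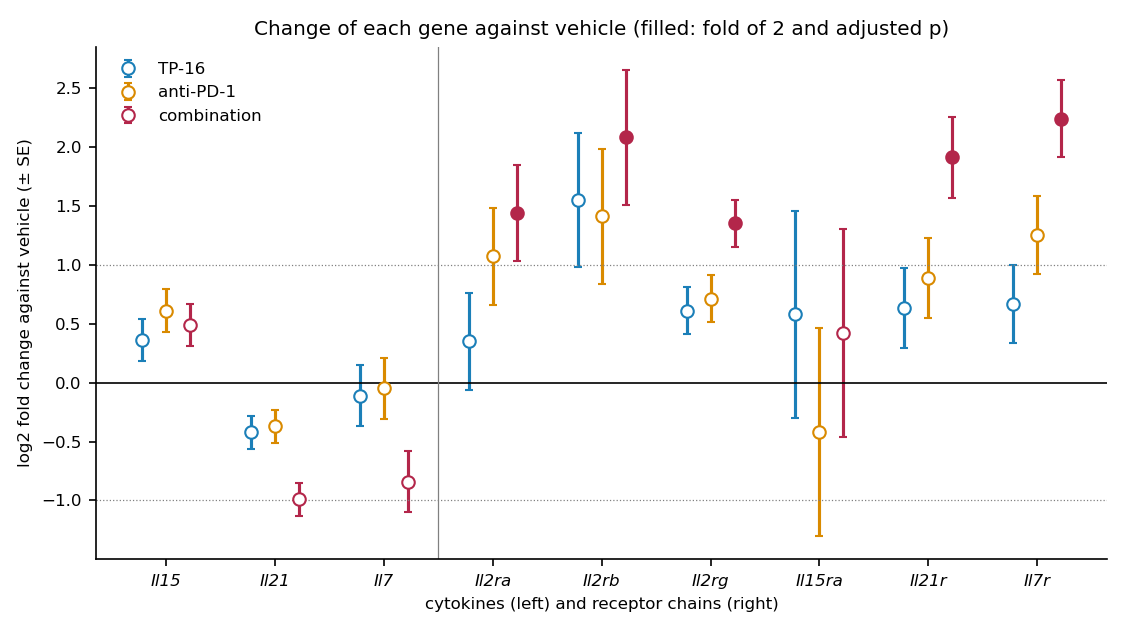
Log2 fold change against vehicle (vertical axis, bars are standard errors) of the 9 tested genes (horizontal axis, cytokines left of the line and receptor chains right of it) with 1 colour each for TP-16, the antibody and both agents. Filled points passed a fold of 2 and adjusted p. The only filled points are the combination's in Il2ra, Il2rb, Il2rg, Il21r and Il7r.

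Setting the combination against each agent asks what the second agent added. Against TP-16, 3 of 9 genes were called higher at the threshold of the methods, Il2ra, Il21r and Il7r, where 3.52% of all tested probes were. Il7r differed by 1.57 ± 0.33 (SE, n = 2 per group, limma adjusted p of 0.13), Il21r by 1.29 ± 0.34 (0.142) and Il2ra by 1.09 ± 0.41 (0.199) on the log2 scale. Against the antibody, 1 of 9 was called, Il21r at 1.02 ± 0.34 (limma adjusted p of 0.142), where 2.3% of all probes were called higher, and Il7r at 0.99 ± 0.33 (0.142) fell just short. At adjusted p no member was called in either comparison, at which 0% and 0.0157% of all probes were called. Of the 9 genes, 6 against TP-16 and 5 against the antibody had an unadjusted p under 0.05 at any fold, beside 22.3% and 26.2% of all tested probes. Without TP-16 replicate 2 only Il7r was called against TP-16 (1.41, limma adjusted p of 0.485), and without anti-PD-1 replicate 2 no member was called against the antibody, with Il21r at 0.74.

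Departure from additivity was the change with both agents minus the sum of the changes with each, on the log2 scale. It lay between -0.88 ± 0.81 (SE) for Il2rb and 0.40 ± 0.49 for Il21r, was 0.32 ± 0.47 for Il7r and 0.03 ± 0.28 for Il2rg, and its limma adjusted p was at least 0.764 for all 9 genes. None was called at the threshold of the methods or at adjusted p, at which 3.2% and 0% of all probes were called, and none had an unadjusted p under 0.05, beside 7.32% of all tested probes. When 1 array was left out, the departure ranged from -1.80 (without vehicle replicate 2) to 0.04 (without vehicle replicate 1) for Il2rb, from -0.99 to 1.52 (without the same arrays) for Il15ra and from -0.01 (without combination replicate 2) to 0.80 (without combination replicate 1) for Il21r. Il2rb at -1.80 was called lower at the threshold of the methods (limma adjusted p of 0.255). With 2 arrays per group these standard errors leave room for departures of either sign.

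The genes that carry the signal were taken from lists of the pathway. The other cytokines of the family, Il4, Il9 and the related Tslp, were well above background on 1, 0 and 2 arrays and were not tested, nor was Il9r, which was above background on none. The receptor chains Il4ra and Crlf2 were tested and neither was called in the combination. Of the 6 JAK and STAT genes described, none was called at either threshold against vehicle. The STAT3 gene Stat3 differed by 0.91 ± 0.25 (limma adjusted p of 0.0419), the kinase gene Jak1 by 0.65 ± 0.12 (limma adjusted p of 0.0138), Jak3 by 0.57 ± 0.20 (0.0768) and Stat5a by -0.54 ± 0.12 (0.025) with the combination on the log2 scale, all within a fold of 2.

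Of 14 STAT5 targets and feedback inhibitors, 3 were called higher with the combination at adjusted p, Cish, Socs1 and Pim2, and none lower, where 5.08% of all tested probes were called higher and 7.47% lower. Pim2 entered the test through treated groups, since it was not well above background in vehicle, which leaves Cish and Socs1 as the called targets measured in both groups. None of the 3 was called at adjusted p with only the 2 groups compared or by the methods' t-test, where 0% of all tested probes were. Without combination replicate 2, which leaves 1 combination array, Cish changed by 1.14 and Socs1 by 0.95 on the log2 scale, the latter under a fold of 2. Cish, a STAT5-induced inhibitor of cytokine receptors, had log2 levels of -1.05 and -0.74 in vehicle, -0.14 and 0.23 in TP-16, 0.07 and -0.33 in anti-PD-1, and 0.24 and 0.75 in the combination. Its change with both agents was 1.39 ± 0.25 (SE, n = 2 per group, limma adjusted p of 0.015), and 1.24 without vehicle replicate 1. The groups given 1 agent overlapped each other and lay above vehicle.

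Socs1, an inhibitor of JAK kinases, had log2 levels of 1.93 and 2.51 in vehicle, 2.72 and 2.62 in TP-16, 3.06 and 2.90 in anti-PD-1, and 3.17 and 3.49 in the combination, in an order of groups without overlap. Its change of 1.11 ± 0.22 (limma adjusted p of 0.0179) was 0.82 without vehicle replicate 1, under a fold of 2. Pim2, a survival kinase, was not well above background on either vehicle array and was so on both combination arrays, where its signal was at least 1.64-fold above the detection bound of vehicle. The limma adjusted p of 0.0102 belongs to the fitted difference, which uses the vehicle readings below detection, and does not test this bound. With TP-16 alone Pim2 was at least 1.25-fold above the bound (limma adjusted p of 0.0552 for the fitted difference). After normexp background correction the log2 difference of Pim2 from vehicle was 0.09 with the combination (limma adjusted p of 0.431) and Pim2 was called with neither treatment.

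The other 11 targets were not called. The anti-apoptotic genes Bcl2, Bcl2l1 and Mcl1 differed by 0.23, -0.18 and -0.10, the growth regulator Myc by -0.30 and the cyclin gene Ccnd2 by -0.06 on the log2 scale. Socs2 differed by -0.77 ± 0.14 (SE, n = 2 per group, limma adjusted p of 0.0144), the reverse of Socs1. In the other direction Pim1 differed by 0.74 ± 0.13 (limma adjusted p of 0.0134) and Socs3 by 0.40 ± 0.15 (0.0911). The median log2 change of the 14 was 0.25, also with Pim2 at its bound.

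**Figure D5:**
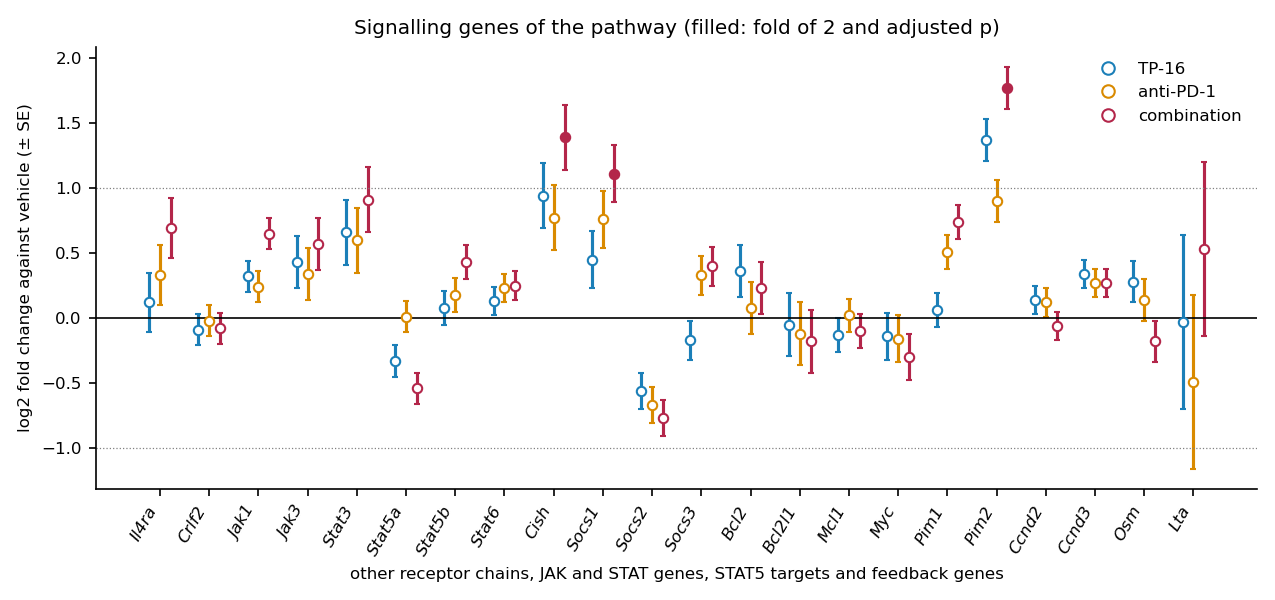
Log2 fold change against vehicle (vertical axis, bars are standard errors) of the 22 tested genes of the pathway lists (horizontal axis), with 1 colour each for TP-16, the antibody and both agents. Filled points passed a fold of 2 and adjusted p. The filled points are the combination's in Cish, Socs1 and Pim2, and the value of Pim2 depends on vehicle arrays below detection.

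T cell markers moved with the receptor genes, and their part in the result was not tested. Of 15 T cell markers, 8 were called higher with the combination at adjusted p, and 9 without vehicle replicate 1, with none lower. The list's summed log2 level was 5.51 to 5.79 in TP-16, 5.72 to 5.97 in anti-PD-1 and 6.21 to 6.88 in the combination, above the vehicle values given earlier. No T cell marker was below background on all arrays, and the markers' median log2 change was 2.77, or 1.40 without vehicle replicate 1. The CD8 gene Cd8a was not well above background on vehicle replicate 1, and without that array it differed by 1.96 ± 0.45 (limma adjusted p of 0.0356), whereas Cd4 differed by 0.41 ± 0.15 (0.0881) with all arrays.

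NK cell markers had a summed log2 level of -0.57 and 1.41 in vehicle and 2.12 and 2.87 in the combination, with 1 of 6 called at adjusted p. Macrophage markers had 7.46 and 7.64 in vehicle and 8.11 and 8.59 in the combination, with 5 of 9 called higher. Dendritic cell markers, which belong to another source of Il15 and Il15ra, had 0.33 and 1.03 in vehicle and 2.34 and 2.64 in the combination, with 4 of 6 called higher. Of these 4, Clec9a and Zbtb46 were not well above background on either vehicle array and entered the test through treated groups, so the count rests in part on readings below detection. Without vehicle replicate 1 these counts were 0 for NK cells, 2 for macrophages and 4 for dendritic cells. Other lists moved too. With the combination 3 of 5 tested B cell markers and 2 of 6 neutrophil markers were called lower, as was 1 of 4 tested carcinoma epithelium markers, and 3 of 7 fibroblast markers were called higher. The B cell marker Cd79a was not well above background on either combination array. Without vehicle replicate 1 these counts were 3, 2, 0 and 2. The shares of these cell types in the receptor values were not tested.

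Subtracting the mean log2 level of the 15 T cell markers from each gene on each array gave a description of unequal change. Relative to these markers the combination minus vehicle difference was -0.07 for Il7r, -0.23 for Il2rb, -0.40 for Il21r, -0.87 for Il2ra and -0.96 for Il2rg. Against vehicle replicate 2 alone it was 0.49, -0.29, 0.36, -0.66 and -0.32. The genes Il15 (-1.82), Il15ra (-1.89) and Il7 (-3.15) were further below the markers, and against vehicle replicate 2 alone by -1.16, -2.29 and -2.35. Il21 is left out here, being near the limit of detection.

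Over the 8 arrays the nearest of 21615 genes compared to Il2rb were an unnamed transcript (Pearson r = 0.999), the CD8 gene Cd8a (0.998) and the cytotoxic lymphocyte gene Nkg7 (0.997). Il2rg ran with the NK receptor gene Klrc1 (r = 0.999), Rnf157 (0.994) and the T cell factor gene Tcf7 (0.993), and Il7r with the transcriptional regulator Id2 (0.997), Pigz (0.990) and Slc37a2 (0.985). For Il21r they were Cd36, Vopp1 and Adgre5 (all r = 0.993), and for Il2ra Tap2 (0.990), Lrrtm2 (0.986) and Adora3 (0.981). Il15ra was nearest to Plekhg3 (r = 0.999), Atxn7 (0.998) and Zfp672 (0.998). Il15 was nearest to Plac8 (r = 0.979), Ch25h (0.977) and Rbm43 (0.975), Il7 to Gramd4 (0.993), Th (0.988) and Atf6 (0.980), and Il21 to Phf5a (0.979), an unnamed locus (0.979) and Med8 (0.976). Among the members, Il2rg and Il7r were at r = 0.97 and Il21r and Il7r at 0.96, whereas Il7 and Il21r were at -0.90. Il15ra, by its brightest probe, was at most at 0.54 with any other member, and its other probes, which read far lower, were not correlated. These correlations describe 8 arrays that share the group differences and the low vehicle replicate 1.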

How the data were processed

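Cy3-labelled tumor RNA was hybridized to Agilent SurePrint G3 Mouse GE V2.0 arrays. The deposited scanner files hold intensity values made by the authors with Agilent Feature Extraction 10.7.1.1 (processed signal, background-subtracted); probe coordinates in them are mm9, and no mm9 annotation of exons was used here. The deposited series table holds log2 values made by the authors in GeneSpring, quantile normalized to judge by the sorted columns, and was used as an alternative. The labels name a column kit and the methods TRIzol for RNA extraction.

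Control spots and outlier marks were left out, spots of a probe were averaged on the log2 scale, and each array's 75th percentile was subtracted. A probe was tested (31912 of 56567) if well above background on both arrays of a group. Group means were fitted to all 8 arrays in limma 3.58.1 (R 4.3.3) with Benjamini-Hochberg adjustment, for 6 comparisons. The fit was tested on simulated data. Counts are of genes by their brightest probe, and the background percentages are of probes. All 10 members are named. One gene of the pathway lists is not reported here. Pathway genes are named where they were called against vehicle or as examples of those not called. The 3 genes with the highest r to each tested member are given. The family of members, the lists and the tests were chosen with earlier results of these data known. The arrays' number limits the precision. The receptor motif WSNWS listed for proteins was not searched, since no protein table was used here. Figures were drawn with matplotlib 3.10.9.

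Alternatives were quantile normalization, normexp (offset of 50), other filters on dim probes, the authors' log2 values, a replicate block, the 2 groups alone, moderation with a trend and robust, the methods' t-test, the second probe and each array left out. Values of pathway genes under all alternatives, and of lists and markers without vehicle replicate 1, were added after seeing the data. Of the calls at the threshold of the methods over all tested probes, the share that was higher moved from 25.4% to 70.4% after quantile normalization with TP-16, from 43.6% to 74.5% with anti-PD-1, from 40% to 68.3% with both, from 53.8% to 71% for both against anti-PD-1, from 83.3% to 51.8% for departure from additivity and from 81.1% to 80.6% for both against TP-16.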

Additional observations from a re-analysis of the deposited data

How the results depend on the processing

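Counts of the 9 genes are given first at the threshold of the methods, with the share of all tested probes called higher in the same setting. With no filter on dim probes Il2, below background, entered as the 10th gene. For TP-16 against vehicle (1 called, 1.57%) they were 2 with no filter, Il2rb higher (0.886%) and Il2 lower (13.6% of all probes called lower), 0 with only the 2 groups compared (1.08%) and 0 by the methods' t-test (0.351%). For anti-PD-1 against vehicle (2 called, 1.67%) they were 1 with only the 2 groups compared (1.12%), 0 by the methods' t-test (0.338%) and 0 with second probes. For the combination against vehicle (5 called, 6.12%) they were 2 by the methods' t-test (2.42%) and 2 with second probes. Against TP-16 (3 called, 3.52%) they were 1 by the methods' t-test (1.2%) and 0 with second probes. Against anti-PD-1 (1 called, 2.3%) they were 2 after quantile normalization (3.02%), 2 with the authors' log2 values (3.02%), 0 by the methods' t-test (0.99%) and 0 with second probes. Departure from additivity gave 1 with no filter, which was Il2, higher (3.2%), and none of the 9. At adjusted p, the combination against vehicle (5 called, 5.08%) gave 3 with no filter (1.66%), 0 with only the 2 groups compared (0%), 0 by the methods' t-test (0%) and 0 with second probes, and against anti-PD-1 normexp gave 1, Il7r higher at 1.02 (0.564%, limma adjusted p of 0.0465). With second probes fewer genes could be tested, and with 2 groups fewer arrays entered. The other causes were not tested.

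Leaving out each array in turn gave these counts at the threshold of the methods, beside the share of all probes called in either direction: 0 to 3 genes for TP-16 (4.89% to 8.89%), 1 to 3 for anti-PD-1 (3.03% to 7.18%), 4 to 6 for the combination against vehicle (9.4% to 18.2%), 1 to 3 against TP-16 (2.33% to 6.35%), 0 to 3 against anti-PD-1 (1.77% to 6.68%) and 0 to 1 for departure from additivity (2.4% to 6.35%). At adjusted p it gave 0 to 1 for TP-16 (0% to 2.51%), 0 to 2 for anti-PD-1 (0% to 0.918%) and 0 to 5 for the combination against vehicle (0% to 14.1%), with 0 for the others. Without vehicle replicate 1 the 5 called at adjusted p were 4 receptor genes higher and Il21 lower, at -1.07. Each fit without an array left 1 array in that group, and the spread came from the other groups. Il2ra by its second probe reversed to -1.12 in the combination against vehicle (limma adjusted p of 0.115).

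Replicate numbers did not pair the arrays: deviations of equal numbers correlated from -0.19 to 0.29. With the number as a replicate block, 4 genes rather than 5 were called at adjusted p for the combination against vehicle, and Il2rb had a limma adjusted p of 0.0516. With 1 slide only, the slide could not serve as a block. Il2, Il21 and the second Il2ra probe are near background, which limits what can be said of them.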
